A study of Rattus norvegicus with 4 samples.

Results

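The genes followed here encode the basement membrane that surrounds the lens, the lens capsule: the type IV collagen chains *Col4a1*, *Col4a2*, *Col4a4* and *Col4a5*, the type VIII collagen chain *Col8a1*, the laminin chains *Lamb2* and *Lamc1*, the linker *Nid1*, the heparan sulfate proteoglycan *Hspg2*, and *Sparc*. They were found by name, as the probe sets to which the platform annotation gives only that gene symbol. All 10 genes had a probe set, the set of probes by which the array measures 1 transcript. They had 14 of the 31042 non-control probe sets and were 10 of 14217 genes with a single symbol. RNA came from lens capsules with the lens epithelial cells (LECs) that adhere to them, from female albino Sprague-Dawley rats. In these animals extracapsular lens extraction (ECLE), which removes the lens content through an opening in the capsule, was performed at 7 weeks of age. The series had 1 array for capsules taken when surgery was complete (Day 0, age 7 weeks), 2 arrays labeled as biological replicates from 7 days after it (1 W, age 8 weeks) and 1 array from 14 days after it (2 W, age 9 weeks). The cells that regrow on the capsule after ECLE are those of posterior capsule opacification (PCO), and the design follows gene expression in them over time.

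Every animal, those of Day 0 included, carried the surgery, no unoperated lens was analysed here, and age and time after ECLE cannot be told apart. The methods give a higher number of samples per time point than there are arrays here, and how many eyes went on an array could not be read from the sources used here. In bulk tissue of this kind, fewer cells of a type and less RNA per cell cannot be told apart.

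Basement membranes are thin sheets of matrix built on interlocked networks. Laminin heterotrimers, each of an alpha, a beta and a gamma chain, assemble at the cell surface, and triple helices of type IV collagen chains form a covalently crosslinked second network. Nidogen and perlecan (*Hspg2*) connect these networks, and Sparc binds collagen outside the cell. The lens capsule is among the thickest basement membranes of the body. LECs lay it down throughout life, and it is the surface on which the remaining LECs grow after ECLE.

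The type IV collagen genes lie in head-to-head pairs, transcribed away from each other. In the RefSeq annotation of rat assembly GRCr8, the starts of *Col4a1* and *Col4a2* on chromosome 16 had 76 bases between them, those of *Col4a3* and *Col4a4* on chromosome 9 had 412, and those of *Col4a5* and *Col4a6* on chromosome X had 1414. Below is the stretch between both starts of the *Col4a1* and *Col4a2* pair, shown because the 2 genes gave nearly parallel profiles. It is followed by the 250 bases before the starts of *Hspg2* and *Col8a1*, the other genes under 0.5-fold on every array after ECLE. All 3 are given 5′ to 3′ on the plus strand, which is the sense strand of *Col4a1*, *Hspg2* and *Col8a1*, with each GC box (GGGCGG on either strand, so also CCGCCC) in capitals.
Col4a1-Col4a2, chr16:84885521-84885596: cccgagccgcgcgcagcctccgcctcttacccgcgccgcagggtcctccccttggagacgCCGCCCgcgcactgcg
Hspg2, chr5:154960596-154960845: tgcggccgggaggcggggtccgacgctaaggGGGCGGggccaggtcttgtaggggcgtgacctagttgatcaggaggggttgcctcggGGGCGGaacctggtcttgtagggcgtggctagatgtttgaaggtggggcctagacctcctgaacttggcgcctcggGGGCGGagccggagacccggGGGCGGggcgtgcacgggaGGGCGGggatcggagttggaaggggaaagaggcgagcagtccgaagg
Col8a1, chr11:56246532-56246781: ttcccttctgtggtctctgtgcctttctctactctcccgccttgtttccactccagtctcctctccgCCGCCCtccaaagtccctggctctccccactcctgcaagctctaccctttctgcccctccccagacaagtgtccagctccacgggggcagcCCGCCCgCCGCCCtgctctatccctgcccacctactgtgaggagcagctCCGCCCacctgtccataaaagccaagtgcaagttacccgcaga

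The 3 stretches held 1, 5 and 4 GC boxes. The letters of a GC box stood in the 250 bases before the start of 7 of the 9 genes found in the RefSeq promoter table and of 32.4% of all 27457 promoters there. The GC box between the starts of *Col4a1* and *Col4a2* lies before both genes and counts for each. A CCAAT box (CCAAT, either strand) stood in 3 of the 9 and in 34.3% of all, and a TATA box (TATAAA, either strand) in 0 of the 9 and in 13.1% of all. GC content over those bases was 75.2% for *Col4a1*, 74.4% for *Col4a2*, 69.2% for *Hspg2* and 52.8% for *Col4a5*, and its median over all promoters was 52.0%. *Lamb2* was not among the 9. These matches describe the letters of the reference and were not tied to any measurement on the arrays.

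The Day 0 array had a median deposited intensity of 57.0, the 1 W replicates 45.2 and 46.7, and the 2 W array 31.9. Each intensity was therefore divided by the mean of its array, and the quotient is called the level here. Levels of one probe set can be compared across arrays, but not with those of another probe set. After this step the 18625 probe sets tested, the brighter part of the array, still had a median shift against Day 0 of -0.08 (1 W) and -0.26 (2 W) on the log2 scale, and single genes are read against these shifts. The 3′ over 5′ signal of beta-actin, which reflects RNA integrity, lay between 1.61 (2 W) and 2.32 (Day 0). All 14 probe sets were in the tested part. Tests are those of limma over all 18625 probe sets with Benjamini-Hochberg adjustment, called where the adjusted p is under 0.05, and the spread in them comes from the 2 arrays at 1 W alone. Levels of the LEC marker list (14 of 15 measured, among them *Pax6*, *Foxe3* and *Cryaa*) summed to 269 (Day 0), 252 and 244 (1 W replicates) and 263 (2 W), and their median log2 ratio to Day 0 was -0.23 (1 W) and -0.38 (2 W). Genes typical of other eye cells and of immune cells had signal too. The summed level of 13 photoreceptor genes was 63.4 at Day 0, 6.40 and 27.0 on the 1 W replicates and 8.52 at 2 W, and that of 14 macrophage genes was 2.90, 19.4, 15.3 and 10.8 on these arrays.

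The basement membrane genes were lower after ECLE than at Day 0 with 1 exception. On each of the 3 arrays after ECLE, 9 of the 10 genes stood below Day 0, against 41.0% of all probe sets tested, and the exception was *Col4a4*. With arrays divided by their 75th percentile the number was 8, *Sparc* being the other exception. All probe sets tested then had a median log2 ratio of -0.0 (1 W) and 0.05 (2 W). With division by actin and GAPDH control probe sets the number was 10. There the median over all probe sets tested was itself far below Day 0, at -0.46 (1 W) and -1.04 (2 W). Over the 10 genes the median log2 ratio was -0.79 and -0.73 on the 1 W replicates and -1.20 at 2 W. Under the fold limits that the methods use, 4 genes (*Col4a1*, *Col4a2*, *Col8a1* and *Hspg2*) were under 0.5-fold on each of the 3 arrays, against 2.08% of probe sets, and *Col4a1* no longer was when arrays were divided by their median or 75th percentile. No gene exceeded 2.0-fold on each array, against 2.05%. By the mean of both arrays 4 genes were under 0.5-fold at 1 W, against 4.99%, and 6 at 2 W, against 14.4%, *Lamb2* and *Lamc1* having joined the others.

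None of these differences passed limma. Of the 10 genes it called 0 at either time, against 0.0483% of probe sets at 1 W and 0.0483% of them at 2 W. Without adjustment, at a p under 0.05, 9 genes were lower at 1 W, against 9.66% of probe sets, and 8 were lower at 2 W, against 21.9%. The adjusted p of the 10 genes, over all 18625 probe sets, ran from 0.0828 to 0.395 at 1 W and from 0.0553 to 0.299 at 2 W. The 1 W arrays differed little in these genes: their absolute log2 difference had a median of 0.10 (0.01 for *Nid1*, 0.53 for *Col4a4*), and a median of 0.21 over all probe sets tested. With 1 array each, Day 0 and 2 W have no spread of their own, and both ratios share the Day 0 array.

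**Figure D1:**
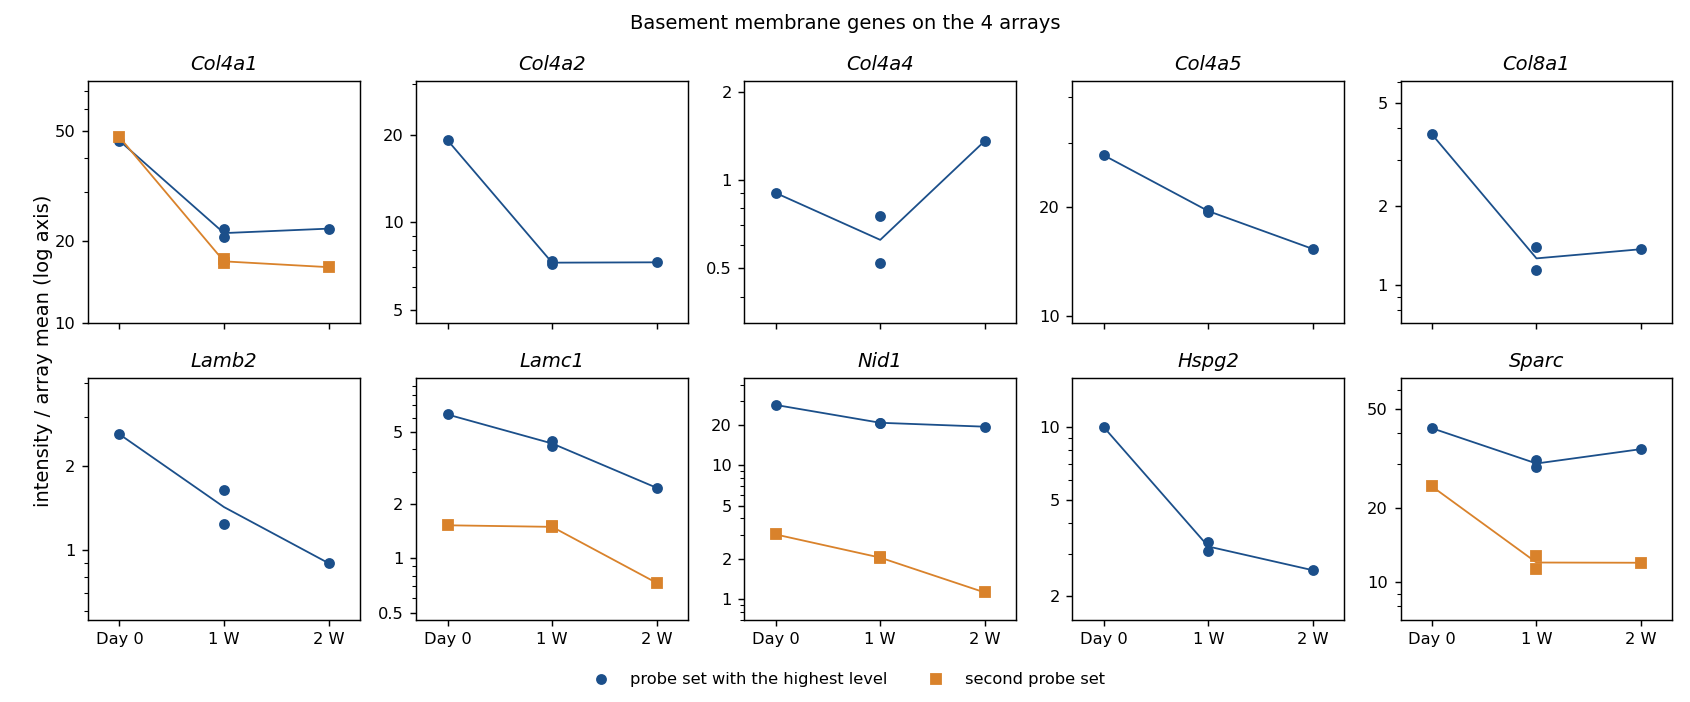
Level of each gene on the 4 arrays (intensity divided by the array mean, log axis) at Day 0, 1 W (2 points) and 2 W, with lines through the mean log level at 1 W and with the second probe set in orange where there is one. *Col4a1*, *Col4a2*, *Col8a1* and *Hspg2* are under 0.5-fold of Day 0 on all 3 arrays after ECLE, while *Col4a4* has its highest level at 2 W.

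*Col4a1* and *Col4a2* encode the chains of the most widespread type IV collagen, a heterotrimer found in nearly all basement membranes. The brighter *Col4a1* probe set had a level of 46.2 at Day 0, 22.0 and 20.6 on the 1 W arrays and 22.1 at 2 W. The 3 arrays after ECLE lay close together and far below Day 0. Its log2 ratio was -1.12 at 1 W (standard error 0.11, adjusted p = 0.101) and -1.06 at 2 W (standard error 0.13, adjusted p = 0.0577). The second *Col4a1* probe set had levels of 47.6 at Day 0, 17.1 and 16.5 on the 1 W arrays and 16.0 at 2 W, with log2 ratios of -1.50 and -1.58. *Col4a2* had a level of 19.2 at Day 0, 7.34 and 7.18 on the 1 W arrays and 7.28 at 2 W. Its ratio to Day 0 was thus 0.379 at 1 W and 0.380 at 2 W (log2 ratio -1.40 at each time, adjusted p = 0.0828 at 1 W and 0.0553 at 2 W). Both genes differed from Day 0 by about the same amount at both times.

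*Col4a5* and *Col4a4* encode chains of the minor type IV collagen networks, which are affected in Alport syndrome, a disease of kidney, ear and eye in which the lens capsule can be thin. *Col4a5* had a level of 27.7 at Day 0, 19.3 and 19.6 on the 1 W arrays and 15.3 at 2 W. Its ratio was 0.704 at 1 W (log2 -0.51, standard error 0.11, adjusted p = 0.173) and 0.554 at 2 W (log2 -0.85, standard error 0.13, adjusted p = 0.0602). The 1 W arrays lay between those of Day 0 and 2 W, without overlap. *Col4a4*, with deposited intensities of only 109 to 224, had a level of 0.904 at Day 0, 0.752 and 0.520 on the 1 W arrays and 1.36 at 2 W. It was below Day 0 at 1 W (log2 -0.53, adjusted p = 0.395) and above it at 2 W (log2 0.59, adjusted p = 0.299). Its 2 arrays at 1 W differed by 0.53 on the log2 scale, the widest gap of the 10 genes.

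The head-to-head partners could be set beside them in part. *Col4a6*, the partner of *Col4a5* and a chain that shares a trimer with it, had a level of 19.0 at Day 0, 10.3 and 9.01 on the 1 W arrays and 6.25 at 2 W in its brighter probe set. Its log2 ratio was -0.98 at 1 W (adjusted p = 0.125) and -1.60 at 2 W (adjusted p = 0.0553), and its second probe set gave -0.78 and -1.69. *Col4a6* and *Col4a5* were both lower at 2 W than on either array at 1 W, as were 55.7% of all probe sets tested. The brighter *Col4a1* probe set and that of *Col4a2* were not. *Col4a3*, the partner of *Col4a4*, was not analysed here.

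*Col8a1* encodes a short-chain collagen that forms sheets in the basement membrane of the corneal endothelium and is also made around blood vessels. It had a level of 3.78 at Day 0, 1.40 and 1.14 on the 1 W arrays and 1.37 at 2 W. All 3 arrays after ECLE stood far below Day 0, and the 2 W level was within the range of the 1 W arrays. The ratio was 0.334 at 1 W (log2 -1.58, standard error 0.19, adjusted p = 0.107) and 0.362 at 2 W (log2 -1.47, standard error 0.22, adjusted p = 0.0607). *Col8a2*, which encodes the other type VIII chain, had log2 ratios of 0.44 and -0.41 on the 1 W arrays and 0.96 at 2 W and was named here after its values were seen. Of 6 measured corneal endothelium genes, a list that holds *Col8a2*, 1 was under 0.5-fold on each array, against 2.08% of all probe sets tested. That gene was the transporter *Slc4a11* (log2 -1.39 and -1.03). The list's summed level was 15.8 at Day 0, 16.9 and 15.2 on the 1 W arrays and 18.0 at 2 W. What share of the *Col8a1* difference came from such cells was not tested.

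**Figure D2:**
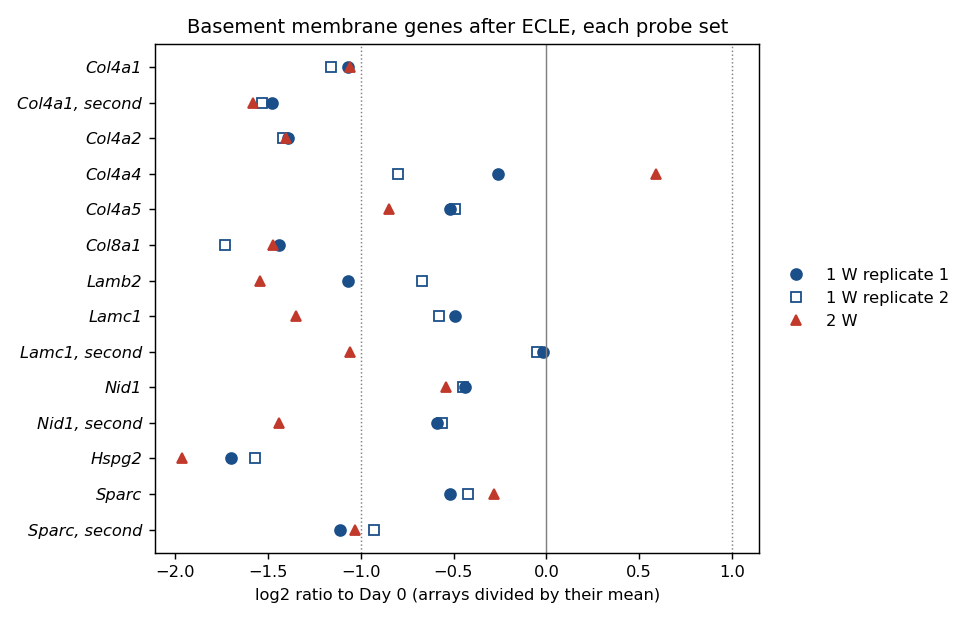
Log2 ratio to Day 0 of each probe set of the 10 genes on 1 W replicate 1 (filled circles), 1 W replicate 2 (open squares) and 2 W (triangles), with dotted lines at the 0.5-fold and 2.0-fold limits. At 2 W *Hspg2* reaches -1.96, and *Col4a4* at 2 W, with 0.59, is the only point above Day 0.

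*Lamb2* and *Lamc1* encode laminin chains: beta-2, found in the retina, kidney and neuromuscular junction as well as the lens capsule, and gamma-1, which nearly all laminins of basement membranes share. *Lamb2* had a level of 2.61 at Day 0, 1.24 and 1.64 on the 1 W arrays and 0.895 at 2 W. Its ratio was 0.546 at 1 W (log2 -0.87, standard error 0.23, adjusted p = 0.205) and 0.343 at 2 W (log2 -1.54, standard error 0.26, adjusted p = 0.0664). The 1 W arrays lay on either side of the 0.5-fold limit. The brighter *Lamc1* probe set had a level of 6.24 at Day 0, 4.46 and 4.17 on the 1 W arrays and 2.45 at 2 W. Its log2 ratio was -0.53 at 1 W (standard error 0.13, adjusted p = 0.197) and -1.35 at 2 W (standard error 0.15, adjusted p = 0.0558). In the second *Lamc1* probe set the levels were 1.52 at Day 0, 1.50 and 1.48 on the 1 W arrays and 0.729 at 2 W. There the 1 W arrays were level with Day 0 (log2 -0.04, adjusted p = 0.918), and only 2 W stood apart (log2 -1.06, adjusted p = 0.0665).

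*Nid1*, nidogen-1, binds the laminin gamma-1 chain and type IV collagen. The brighter probe set had a level of 28.2 at Day 0, 20.8 and 20.7 on the 1 W arrays and 19.4 at 2 W. The log2 ratio was -0.45 at 1 W (standard error 0.11, adjusted p = 0.193) and -0.54 at 2 W (standard error 0.12, adjusted p = 0.0878). The second *Nid1* probe set had levels of 3.04 at Day 0, 2.02 and 2.06 on the 1 W arrays and 1.12 at 2 W. It was close to the first at 1 W (log2 -0.58) but lay well below it at 2 W (log2 -1.44, adjusted p = 0.0567), so the size of the *Nid1* difference at 2 W depended on the probe set.

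*Hspg2* encodes perlecan, whose heparan sulfate chains hold growth factors in the matrix, FGF2 among them. It had a level of 9.95 at Day 0, 3.07 and 3.35 on the 1 W arrays and 2.56 at 2 W. Its mean ratio to Day 0 was the lowest of the 10 genes at both times, although on replicate 2 at 1 W that of *Col8a1* was lower (log2 -1.73, against -1.57). The *Hspg2* ratio was 0.322 at 1 W (log2 -1.63, standard error 0.14, adjusted p = 0.0828) and 0.257 at 2 W (log2 -1.96, standard error 0.16, adjusted p = 0.0553). Scaled by the 75th percentile of each array, *Hspg2* was the only one of the 10 genes that limma called at 2 W. It was 1 of 399 probe sets called there in all. At 1 W limma called none of the 10 genes and 9 probe sets in all.

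*Sparc* encodes a collagen-binding matrix glycoprotein, and mice that lack it develop cataract with an altered lens capsule. Its brighter probe set had a level of 41.9 at Day 0, 29.2 and 31.2 on the 1 W arrays and 34.5 at 2 W. The ratio was 0.722 at 1 W (log2 -0.47, standard error 0.11, adjusted p = 0.192) and 0.825 at 2 W (log2 -0.28, standard error 0.13, adjusted p = 0.234). The difference at 2 W was about that of the median probe set (-0.26), and scaled by the 75th percentile of each array it turned to 0.04. The second *Sparc* probe set had levels of 24.4 at Day 0, 11.3 and 12.8 on the 1 W arrays and 12.0 at 2 W, with log2 ratios of -1.02 at 1 W (adjusted p = 0.118) and -1.03 at 2 W (adjusted p = 0.0607). The deposited intensities of the brightest sets at Day 0, 11277 and 11634 for *Col4a1* and 10231 for *Sparc*, were near the highest on that array (14184). How far the scale is compressed there was not tested.

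No gene passed the test between 2 W and 1 W. limma called 0 of the 10 genes between these times and 0.0% of probe sets. At an unadjusted p under 0.05, 3 genes were lower at 2 W than at 1 W, against 16.4% of probe sets, and 1 was higher. *Lamc1* was lower at 2 W by 0.82 on the log2 scale in its brighter probe set (unadjusted p = 0.00322, adjusted p = 0.139) and by 1.03 in its second. *Lamb2* had a log2 difference of -0.67 (adjusted p = 0.213) and *Col4a5* of -0.34 (adjusted p = 0.200). *Col4a4* was the gene that was higher, by 1.12 (unadjusted p = 0.0169, adjusted p = 0.167). The differences were 0.05 for *Col4a1*, 0.00 for *Col4a2*, 0.11 for *Col8a1*, -0.10 for *Nid1*, -0.33 for *Hspg2* and 0.19 for *Sparc*. The median over the 10 genes was -0.05, and that over all probe sets tested was -0.20.

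**Figure D3:**
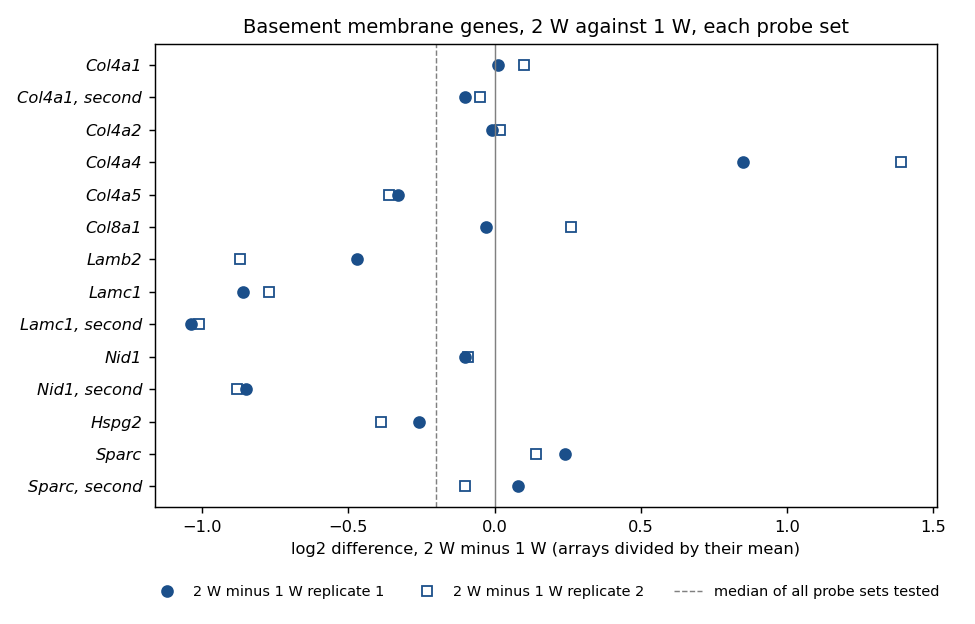
Log2 difference between 2 W and each 1 W array (filled circles for replicate 1, open squares for replicate 2) for every probe set of the 10 genes, with the median of all probe sets tested (-0.20) as a dashed line. Both *Lamc1* probe sets, *Lamb2* and the second *Nid1* probe set lie farthest to its left, and *Col4a4* lies far to the right.

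Other basement membrane components lay on both sides of Day 0. Of 29 listed, 24 were measured and 21 were bright enough to test. On each array after ECLE 3 were under 0.5-fold and 2 over 2.0-fold, against 2.08% and 2.05% of all probe sets tested. Below Day 0 on each array stood 8 of the 24, against 41.0% of all probe sets tested. limma called 0, and the list had a median log2 ratio of 0.02 (1 W) and -0.22 (2 W). *Lama5*, a laminin alpha chain of many epithelia, had a level of 3.93 at Day 0, 1.28 on both arrays at 1 W and 1.02 at 2 W (log2 -1.62 and -1.94, adjusted p = 0.0924 and 0.0553). That was its brightest probe set. A dimmer tested one, with a level of 0.216 at Day 0, had log2 ratios of -1.59 and -0.45 on the 1 W arrays and -0.87 at 2 W. Another *Lama5* probe set was too dim to test. *Tinagl1*, a matrix protein related to a tubulointerstitial nephritis antigen, had log2 ratios of -1.46 and -1.90. *Lama4*, a laminin alpha chain typical of vessels and mesenchymal cells, was above Day 0 on every array, with levels of 0.131 at Day 0, 0.427 and 0.357 on the 1 W arrays and 0.403 at 2 W (log2 1.57 and 1.61, adjusted p = 0.148 and 0.0769). The others past a limit on each array were *Hmcn1* below it and *Col7a1* above it, named after their values were seen. So were *Lama1*, the alpha chain of the early lens capsule, and *Lamb1*. *Lama1* had a log2 ratio of -0.26 (1 W) and -1.58 (2 W), with adjusted p = 0.400 and 0.0553, and *Lamb1* -0.04 and -0.19. The deposited Day 0 intensities of *Lama4* (32.1) and *Col7a1* (35.7) were below the array median of 57.0. A second *Lama4* probe set was too dim to test.

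**Figure D4:**
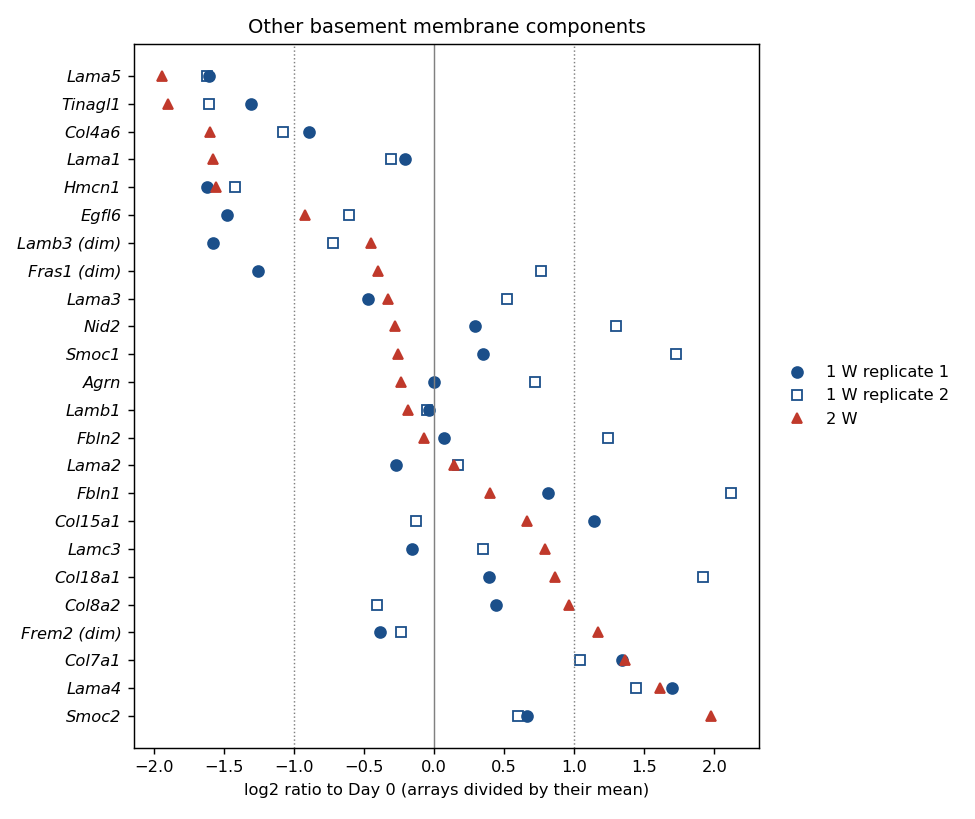
Log2 ratio to Day 0 of 24 other basement membrane components on 1 W replicate 1 (filled circles), 1 W replicate 2 (open squares) and 2 W (triangles), ordered by the value at 2 W, with dotted lines at the 0.5-fold and 2.0-fold limits and dim genes (not tested) marked. *Lama5*, *Tinagl1* and *Hmcn1* lie left of the lower limit on all 3 arrays, *Col7a1* and *Lama4* right of the upper one, and for *Fbln1* the 1 W arrays lie far apart.

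Of 22 symbols listed for the processing of type IV collagen, some of them older names of others, 18 were measured. Limma called 0 of these at either time. Their median log2 ratio was -0.33 (1 W) and -0.51 (2 W), beside -0.08 and -0.26 over all probe sets tested. The median log2 difference between 2 W and 1 W was -0.34 in this list and -0.20 over all probe sets tested. At 2 W 16 of the 18 stood below their 1 W mean, as did 66.4% of all probe sets tested. *Loxl2*, a lysyl oxidase that crosslinks type IV collagen, was the only one under 0.5-fold on each array, with log2 ratios of -1.15 and -1.35 (adjusted p = 0.142 and 0.0646). *Pxdn*, peroxidasin, forms the sulfilimine crosslinks of type IV collagen and was named after its values were seen. Its level was 15.0 at Day 0, 11.0 and 10.2 on the 1 W arrays and 5.93 at 2 W (log2 -0.50 and -1.34, adjusted p = 0.196 and 0.0558).

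Among 14 measured receptors for basement membrane proteins the median log2 ratio was -0.04 (1 W) and -0.50 (2 W), and 13 stood below their 1 W mean at 2 W, against the 66.4% of all probe sets. Limma called 0. *Gpc1*, a cell surface heparan sulfate proteoglycan, was under 0.5-fold on each array (log2 -1.36 and -1.95, adjusted p = 0.0998 and 0.0553). *Ddr2*, a collagen receptor that prefers fibrillar collagens, was over 2.0-fold on each (log2 1.69 and 1.27, adjusted p = 0.132 and 0.0887). Of 15 proteases and their inhibitors 0 were under 0.5-fold on each array, against 2.08% of all probe sets tested. Over 2.0-fold on each array were 2, against 2.05%, and 0 were called. The first was *Mmp2*, gelatinase A, which cleaves type IV collagen, with a level of 0.127 at Day 0, 0.825 and 0.839 on the 1 W arrays and 1.20 at 2 W (log2 2.71 and 3.23, adjusted p = 0.0828 and 0.0553). All 3 arrays after ECLE stood well above Day 0, where the deposited intensity of *Mmp2*, 31.1, was below the array median of 57.0. The other, *Mmp9*, was too dim to test.

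Of 9 fibrillar collagens, those of stroma and scar, 3 exceeded 2.0-fold on each array, against 2.05% of all probe sets tested. *Col1a1*, a chain of type I collagen, rose at both times. Its level was 0.104 at Day 0, 2.16 and 2.05 on the 1 W arrays and 3.91 at 2 W (log2 4.34 and 5.23, adjusted p = 0.0300 and 0.0405). The call was lost at both times without the intensity trend in limma (adjusted p = 0.295 and 0.149) and at 2 W after quantile normalization (adjusted p = 0.0567). *Col1a2*, the other chain of type I collagen, was named after its values were seen. It had a deposited intensity of 1768 at Day 0 and log2 ratios of -0.11 (1 W) and 0.37 (2 W). At 1 W *Col5a2*, which encodes a type V collagen chain, rose as well (log2 5.13, adjusted p = 0.0300, or 0.295 without the trend) and stood at 4.61 on the same scale at 2 W (adjusted p = 0.0503). *Col3a1* had log2 ratios of 3.65 and 4.76 (adjusted p = 0.121 and 0.0577). The Day 0 intensities behind these ratios were dim: 25.4 for *Col1a1*, 28.9 for *Col5a2* and 52.8 for *Col3a1*, below the array median of 57.0. The median of the 9 was 0.37 at each time, none was under 0.5-fold on each array, and limma called 2 of them at 1 W and 1 at 2 W.

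Transcripts of other cell types differed between the arrays as well, and their part in the basement membrane values was not tested. None of the listed genes was at 0 on any array, which without detection calls does not show that they were expressed. Over all probe sets tested, 2.08% were under 0.5-fold on each array after ECLE and 2.05% over 2.0-fold. Blood vessels also make type IV collagen, laminin and perlecan. Of 12 vascular endothelial genes 0 were under 0.5-fold on each array, and their summed level was 3.48 at Day 0, 4.77 and 2.88 on the 1 W arrays and 3.95 at 2 W. The sum over 10 pericyte and smooth muscle genes was 2.09 at Day 0, 7.16 and 1.95 on the 1 W arrays and 4.02 at 2 W. Of 13 photoreceptor genes 8 were under 0.5-fold on each array and 0 over 2.0-fold. Their sum was 6.40 and 27.0 on the 1 W arrays. Of 14 macrophage genes 11 exceeded 2.0-fold on each array. Of 10 fibroblast genes 3 did, and 1 was under 0.5-fold on each. The latter was *Pdgfra* (log2 -1.52 at 1 W and -1.81 at 2 W), named after its values were seen. The fibroblast sum was 22.7 at Day 0, 49.3 and 30.5 on the 1 W arrays and 45.4 at 2 W. Of 11 pigment, ciliary body and iris genes 4 exceeded 2.0-fold on all of them, with sums of 13.3, 70.3, 28.0 and 39.0 on the same arrays. The sum over 8 Mueller glia genes, led by *Vim*, which LECs also express, was between 61.0 and 72.9 on all 4 arrays, and that over 7 Schwann cell genes between 18.2 and 32.3. Of 14 LEC markers 1 was under 0.5-fold on each array, the epithelial cadherin *Cdh1* (log2 -1.13 and -1.89, adjusted p = 0.116 and 0.0553). The summed level of the 10 basement membrane genes was 187 at Day 0, 110 on each 1 W array and 107 at 2 W. Most of that sum came from the brightest genes, *Col4a1*, *Sparc*, *Nid1* and *Col4a5*.

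Arrays were also centred on the median of the LEC markers, an alternative added after seeing the data. That list had no single direction at 2 W, with log2 ratios of -1.89 for *Cdh1*, -1.46 for *Foxe3*, -1.03 for *Sox2* and -0.98 for *Pax6*, but 0.69 for *Cryaa*, 0.61 for *Cryab* and 0.40 for *Dkk3*, all but *Cdh1* named after their values were seen. On the centred scale the 10 genes had a median log2 ratio of -0.40 (1 W) and -1.01 (2 W), and all probe sets tested one of 0.22 and -0.07. *Col4a2*, *Col8a1* and *Hspg2* were under 0.5-fold on each array, and *Col4a1* was not. Of the 10 genes 9 stood below Day 0 on each array, all but *Col4a4*.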

How the data were processed

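RNA of lens capsules with LECs at Day 0, 1 W and 2 W was hybridized to 4 rat genome arrays. The authors scanned these with the Affymetrix software named in the submitters' processing notes (Affymetrix Expression Console) and deposited 1 linear intensity per probe set. The sources used here name neither the summary algorithm nor a scaling target. All value columns belonged to the 4 samples. Control probe sets (57) were left out, each array was divided by its mean, after the per chip normalization of the methods, and log2 was taken. Probe sets whose mean log2 level reached the 40th percentile (18625) were fitted in limma 3.58.1 (R 4.3.3, lmFit and eBayes with trend, 1 mean per group, two-sided), with 1 residual and 3.12 prior degrees of freedom. Where a gene had several probe sets, the brightest by mean level stands for it. Of the platform's probe sets with a single symbol, 20758 were found under the same symbol in RefSeq (GRCr8), and all 10 genes were found there. The RefSeq promoter sequences also came from GRCr8.

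The genes and all 16 lists were chosen with earlier results of these data known. Named are all 10 genes, *Col4a3* and *Col4a6*, and of each list up to 3 tested genes past 2.0-fold or 0.5-fold on each array with the largest log2 ratio at 2 W, or otherwise, where named, its brightest. For *Col4a1* and *Sparc* the 5 genes with the most similar profile are named. Genes outside this rule are marked. Settings varied were the scaling (median, 75th percentile, quantile, none), a floor, the filter, the trend, robust fitting, the probe set rule and each 1 W replicate left out. Python 3.11.15 with pandas 2.3.3 made the tables. The number of arrays limits the precision, and with no detection calls used here the signal over background is unknown.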

Additional observations from a re-analysis of the deposited data

How the results depend on the processing

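limma called 0 of the 10 genes at each contrast, and this depended on the scaling. With arrays divided by their median it called 3 genes at 1 W and 5 at 2 W (of 406 and 1631 probe sets called in all). Divided by their 75th percentile the count was 0 at 1 W and 1 at 2 W (of 9 and 399 called in all). Values as deposited gave 4 at 1 W, 9 at 2 W and 4 for 2 W against 1 W, but there 250, 7974 and 4421 probe sets were called in all. Division by the actin and GAPDH control probe sets, added after seeing the data, gave 8, 9 and 5 (of 772, 9785 and 2893). Centring on LEC markers, also added, gave 4, 6 and 1 (of 1444, 2049 and 1065). All these calls were lower. Quantile normalization, a floor, no filter, a stricter filter, no trend and robust fitting left the 3 counts at 0. Without trend 0 probe sets were called in all at any contrast, with quantile normalization 8 at 1 W and 0 at 2 W, and for 2 W against 1 W 0 under all 6 settings, so these counts say nothing of stability. The number of genes under 0.5-fold on each array, 4, was 3 under median and 75th percentile scaling and with arrays centred on LEC markers, each without *Col4a1*. It was 4 without 1 W replicate 1 and 5 without 1 W replicate 2, where *Lamb2* joined. The count over 2.0-fold was 0 under each setting run. Of 200 tested ratios of single genes under other settings, division by the control probe sets left out, 167 kept their direction and side of the threshold. Of the rest 32 newly passed it and 1 turned sign: *Sparc* at 2 W, 0.04 with the 75th percentile. With the control probe sets all 10 genes stood below Day 0 at 2 W, so *Col4a4* turned sign there. Of 40 ratios with no test, from averaged probe sets or with a 1 W replicate left out, 8 differed by more than the replicate spread. These were the averages of *Col4a1*, *Lamc1*, *Nid1* and *Sparc*, the genes with a second probe set. The other 32 could not differ by more, so they say nothing of stability. An average over 1 probe set is that probe set, and leaving out a replicate always moves the mean by less than this spread. The shift of all probe sets at 2 W ran from -1.04 with the control probe sets to 0.05 with the 75th percentile, and the median of the 10 genes from -1.98 to -0.89. With either 1 W replicate left out no residual degree of freedom remained for limma, so only values were computed. No paired analysis was possible because Day 0 and 2 W have 1 array each, and their labels carry no replicate number.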

Other observations

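The profile of *Col4a1* over the 4 arrays was compared with those of 10454 other genes by the root mean square distance of log2 levels centred on their mean, as a description over 4 arrays that all genes share. The 5 closest genes were *Sox2* (distance 0.026), a transcription factor of the lens epithelium and neural stem cells, *Tmem39b* (0.036), *Ctnnal1* (0.043), *Pcdhb17* (0.051) and *Sdc2* (0.070), a cell surface heparan sulfate proteoglycan. *Sox2* had log2 ratios to Day 0 of -0.99 and -1.12 on the 1 W arrays and -1.03 at 2 W. *Col4a2* ranked 28 (0.13) and *Col8a1* ranked 191. For *Sparc*, the closest were *Apc* (0.005), a negative regulator of Wnt signaling, *Tm2d2* (0.013), *Clpx* (0.023), *Ptcd3* (0.023) and *Ccdc127* (0.024), and *Nid1* ranked 432. *Apc* had log2 ratios of -0.52 and -0.43 on the 1 W arrays and -0.29 at 2 W.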
